A study of Mus musculus with 6 samples.

Results

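The mitochondrial genome encodes a small, complete set of messenger, ribosomal and transfer RNAs, and their levels were examined here in muscle of 6-week-old male mice by RNA-seq. Members were chosen by name, as every row of the count table whose gene name began with mt-. That rule found 37 of 53084 genes, and all 37 lay on the mitochondrial chromosome with coordinates and strand identical to the GENCODE vM21 annotation. They comprised 13 protein-coding genes, 2 rRNA genes and 22 tRNA genes. The study compared 3 Tarsl2+/+ mice (583, 584 and 595) with 3 Tarsl2-/- mice (588, 589 and 591), all with the strain given as C57BL/6 in the labels, while the methods of the study name C57BL/6J for the line. The title of mouse 589 carried another prefix (KOT1) than those of the other Tarsl2-/- mice (KO1), and the sources used here do not say what it marks. The Tarsl2-/- animals carried a CRISPR/Cas9 deletion of an exon of Tarsl2 in every tissue, so the deletion was not restricted to muscle, and the source does not say which muscle was taken. Tarsl2 encodes a threonyl-tRNA synthetase-like enzyme of the cytosol and nucleus, not of the mitochondrion.

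Each library held between 16176591 and 20123767 counts, so that 3 counts stood for 0.149 to 0.185 CPM (the count scaled to a common library size, after TMM, a factor that corrects library totals for composition). Tarsl2 itself fell from 27.7 ± 4.0 CPM (SD, n = 3) in Tarsl2+/+ to 1.97 ± 0.231 CPM (SD, n = 3) in Tarsl2-/- muscle (adjusted p = 6.45e-07 by edgeR). Defining muscle genes were abundant in all libraries, with a summed level of 123517 to 141709 CPM over 10 markers, whereas 10 retinal markers summed to 15.9 to 19.2 CPM and 5 cardiac markers to 5.49 to 8.36 CPM. Rom1 held 257 to 370 counts, the other retinal markers at most 7, and the genes Pde6b, Crx and Nrl and the atrial gene Nppa were at 0. A gene was called changed where edgeR's quasi-likelihood test gave a Benjamini-Hochberg adjusted p under 0.05 over all 15075 genes tested. By that rule 342 genes, or 2.27% of those tested, were called, 0.896% as higher and 1.37% as lower in Tarsl2-/- muscle. All p-values describe the spread between these 6 mice.

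The mitochondrial genome is a compact circle. Both strands are transcribed into long polycistronic RNAs, and the tRNAs that punctuate them are cut out to release the mRNAs and rRNAs. The proteins made from the 13 mRNAs are core subunits of respiratory complexes I, III, IV and V, and every protein needed to copy, transcribe and translate this genome is imported from the cytosol. Most mitochondrial mRNAs and both rRNAs receive short A tails, and muscle is rich in them. Libraries made by poly(A) selection, as these were, therefore sample the tailed mRNAs and rRNAs and were not designed to capture mature tRNAs.

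The genes lie so close together that several overlap, and this limits what a count can mean. The end of mt-Atp8 and the start of mt-Atp6 share 43 bases (chrM:7927-7969), shown here from the transcripts of GENCODE vM21 (GRCm38) with the start codon of mt-Atp6 and the stop codon of mt-Atp8 in capitals.
mt-Atp8/mt-Atp6: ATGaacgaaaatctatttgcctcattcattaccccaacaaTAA
mt-Nd4l and mt-Nd4 share 7 bases, and mt-Nd5 and mt-Nd6 share 14 bases on opposite strands. How the counting treated reads that cover 2 genes, and whether it used strand, is not given in the sources used here, so mt-Atp8, mt-Nd4l and mt-Nd6 carry that uncertainty.

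Among the tRNAs, 3 carried nearly all the counts. They are shown 5′ to 3′ with the anticodon in capitals, beside mt-Tt, the threonine tRNA of the mitochondrion.
mt-Tn: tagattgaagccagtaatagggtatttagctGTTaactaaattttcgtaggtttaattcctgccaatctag
mt-Tc: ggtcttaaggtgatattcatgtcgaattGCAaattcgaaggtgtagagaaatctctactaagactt
mt-Tp: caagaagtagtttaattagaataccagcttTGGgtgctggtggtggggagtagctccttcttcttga
mt-Tt: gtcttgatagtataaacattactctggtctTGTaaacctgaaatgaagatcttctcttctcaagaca
The genes read asparagine (mt-Tn, 71 bases), cysteine (mt-Tc, 66 bases), proline (mt-Tp, 67 bases) and threonine (mt-Tt, 67 bases) codons. mt-Tn (chrM:5089-5159) and mt-Tc (chrM:5192-5257) are neighbours on the minus strand, 32 bases apart, and mt-Tp lies at chrM:15356-15422, also on the minus strand.

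The third kind of sequence shown is that of mt-Co2, since the nuclear genome holds copies of it that can attract the same reads. Bases 445 to 504 of the gene, counted from 1 at its 5′ end, are set against the same window of 2 nuclear pseudogenes. Capitals in mt-Co2 and Gm13341 mark the bases at which those 2 differ.
mt-Co2: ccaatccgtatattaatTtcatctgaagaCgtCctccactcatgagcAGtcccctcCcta
Gm28661: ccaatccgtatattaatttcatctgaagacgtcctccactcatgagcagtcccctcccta
Gm13341: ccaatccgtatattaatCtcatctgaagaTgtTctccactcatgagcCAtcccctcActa
Gm28661 on chromosome 1 was identical to mt-Co2 here and over all 681 aligned bases. Gm13341 on chromosome 2 had 6 substitutions in the window of 60 bases (T462C, C474T, C477T, A492C, G493A and C501A, mt-Co2 base first).

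Mitochondrial genes together took 4.64%, 6.30% and 5.14% of the counts in Tarsl2+/+ mice 583, 584 and 595. The corresponding shares were 6.38%, 6.72% and 5.28% in Tarsl2-/- mice 588, 589 and 591. The groups overlapped, since mouse 584 lay above mouse 591, and the means of 5.36% ± 0.851 and 6.13% ± 0.753 (SD, n = 3 each) differed by about the spread within a genotype. The class means differed in opposite directions beneath this total, but the genotypes overlapped in each class through mouse 584, and no test was run on these shares. Protein-coding genes made up 4.62% ± 0.945 of counts in Tarsl2+/+ and 5.61% ± 0.682 in Tarsl2-/- muscle. The 2 rRNAs made up 0.586% ± 0.0677 and 0.426% ± 0.0959, and the tRNAs 0.150% ± 0.0367 and 0.0959% ± 0.0187 (SD, n = 3 each).

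**Figure D1:**
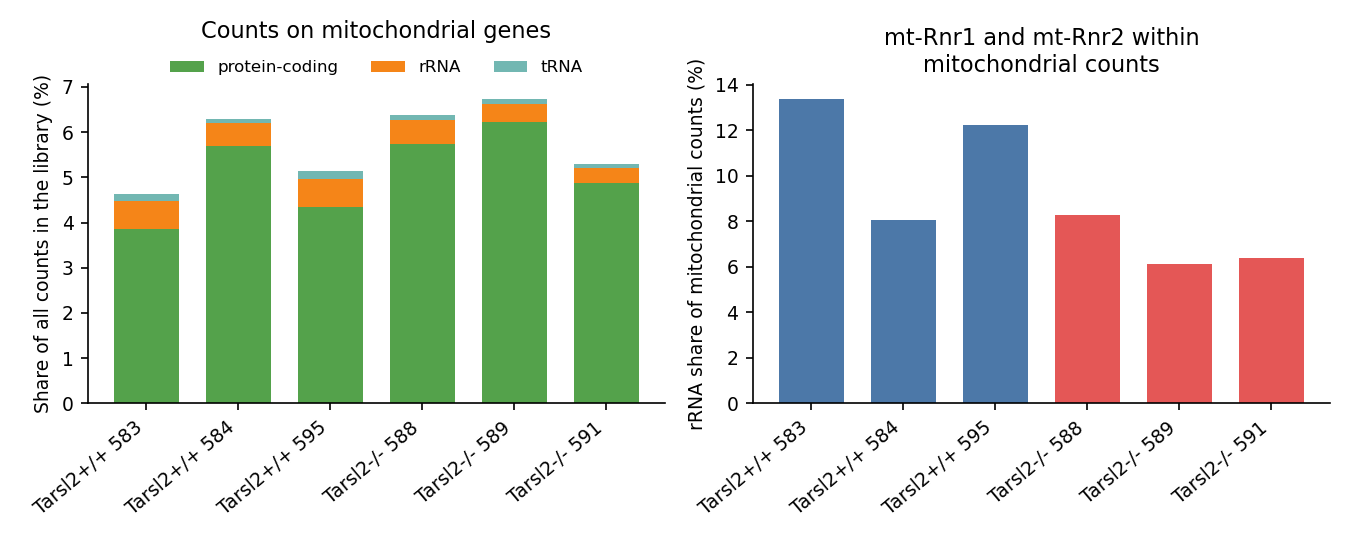
The left panel plots the share of all counts in each library (%, y axis) that fell on mitochondrial protein-coding, rRNA and tRNA genes, stacked, for the 6 mice on the x axis. The right panel plots the 2 rRNAs as a percentage of all mitochondrial counts, which ran from 8.07% to 13.4% in Tarsl2+/+ (blue) and from 6.15% to 8.26% in Tarsl2-/- mice (red).

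None of the 25 mitochondrial genes with enough counts to test was called changed by edgeR's quasi-likelihood test, against 2.27% of all genes. At an unadjusted p under 0.05 there were 4 of 13 mRNAs, 1 of 2 rRNAs and 2 of 10 tested tRNAs, against 19.8% of all genes. DESeq2 called 2 of the same 25, mt-Atp6 and mt-Rnr1, among 719 genes in all, and limma-voom called none. The fitted log2 fold change of Tarsl2-/- over Tarsl2+/+ was above 0 for 12 of 13 mRNAs with a median of 0.27, against 50.4% of all genes and a median of 0.003. It was below 0 for both rRNAs, and above 0 for 6 and below 0 for 4 of the 10 tRNAs. These genes share transcripts and a library, so they are not independent of one another.

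**Figure D2:**
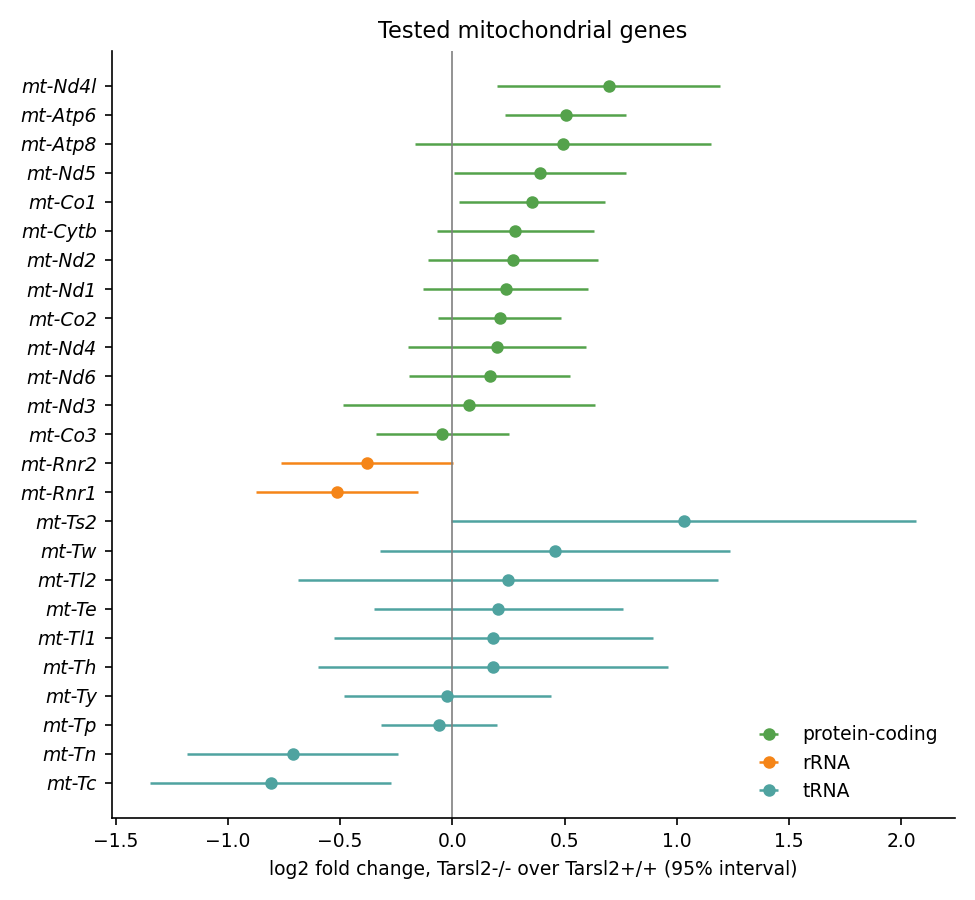
The x axis plots the fitted log2 fold change of Tarsl2-/- over Tarsl2+/+ with its 95% interval for the 25 tested mitochondrial genes, one per row and coloured by class. The mRNAs sat between -0.04 and 0.70 and both rRNAs below 0, while mt-Tn and mt-Tc were the lowest of the tRNAs.

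Complex I, the NADH dehydrogenase at the entry of the respiratory chain, takes 7 subunits from mitochondrial DNA. mt-Nd5, a subunit of its proton-pumping arm, measured 2187, 3573 and 2620 CPM in the Tarsl2+/+ and 3731, 4197 and 3056 CPM in the Tarsl2-/- mice. All Tarsl2-/- values but that of mouse 591 lay above all Tarsl2+/+ values, and the log2 fold change was 0.39 ± 0.17 (SE), with a 95% interval of 0.01 to 0.77 and an adjusted p of 0.245 by edgeR. The smaller membrane subunit mt-Nd4l measured 15.4, 30.2 and 21.996 CPM in Tarsl2+/+ and 26.4, 38.4 and 44.9 CPM in Tarsl2-/- mice. Its log2 fold change of 0.70 ± 0.23 (SE) was the highest among the mRNAs, with an interval of 0.20 to 1.19 and an adjusted p of 0.126 by edgeR. Mouse 588 lay below mouse 584, so the groups overlapped.

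The other subunits of this complex had smaller log2 fold changes. mt-Nd1 measured 5718, 8561 and 6917 CPM in Tarsl2+/+ and 9095, 9239 and 6642 CPM in Tarsl2-/- mice. mt-Nd2 measured 2912, 4717 and 3651 CPM against 4921, 4940 and 3740 CPM. In both genes mouse 591 had the lowest value of its genotype and mouse 584 the highest of the other. mt-Nd4 measured 2577, 4316 and 3257 CPM in Tarsl2+/+ and 4143, 4347 and 3147 CPM in Tarsl2-/- mice. mt-Nd6, the one mRNA encoded on the minus strand, measured 688, 1038 and 850 CPM against 1038, 1087 and 765 CPM. The log2 fold changes of these 4 genes lay between 0.17 and 0.27, with adjusted p from 0.417 to 0.619 by edgeR. mt-Nd3 varied widely within a genotype, at 199.6, 152 and 167 CPM in Tarsl2+/+ and 168, 273 and 106 CPM in Tarsl2-/- mice, and its log2 fold change was 0.07 ± 0.26 (SE).

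Complex III receives cytochrome b from mitochondrial DNA. mt-Cytb measured 7178, 10404 and 8019 CPM in Tarsl2+/+ and 11012, 11479 and 8612 CPM in Tarsl2-/- mice. Mice 588 and 589 were above all Tarsl2+/+ values, mouse 591 was not, and the log2 fold change was 0.28 ± 0.16 (SE; adjusted p = 0.358 by edgeR).

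Complex IV, cytochrome c oxidase, has its 3 core subunits encoded here. mt-Co1 was the most abundant mitochondrial RNA, taking 38.4% to 42.6% of mitochondrial mRNA counts in each library. It measured 15311, 21340 and 17596 CPM in Tarsl2+/+ and 23634, 25462 and 20278 CPM in Tarsl2-/- mice. Only mouse 591 overlapped the other genotype, and the log2 fold change was 0.35 ± 0.15 (SE), with an interval of 0.03 to 0.68 and an adjusted p of 0.210 by edgeR. mt-Co2, the subunit that accepts electrons from cytochrome c, measured 469.97, 509 and 527 CPM against 652, 622 and 469 CPM, a log2 fold change of 0.21 ± 0.12 (SE). mt-Co3 measured 498, 606 and 488 CPM in Tarsl2+/+ and 556, 574 and 414 CPM in Tarsl2-/- mice. With a log2 fold change of -0.04 ± 0.13 (SE), it was the only mRNA below 0.

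Complex V, the ATP synthase, has 2 membrane subunits encoded by the overlapping pair shown above. mt-Atp6, part of the proton channel, measured 255, 332 and 259 CPM in Tarsl2+/+ and 401, 443 and 357 CPM in Tarsl2-/- mice. It was the only one of the 25 tested mitochondrial genes whose genotypes did not overlap, which held for 24.6% of all genes tested (12.6% higher and 12% lower in Tarsl2-/-). With the counts of its near-identical nuclear copy Gm10925 (below) added, the genotypes overlapped, since mouse 584 then lay above mouse 591. The log2 fold change of mt-Atp6 without the copy was 0.50 ± 0.12 (SE), with a 95% interval of 0.23 to 0.77. The adjusted p was 0.0592 by edgeR and 0.00252 by DESeq2. Without Tarsl2+/+ mouse 584 the edgeR value was 0.0143, which would be called, as were 625 of 15394 genes in that setting. mt-Atp8 was sparse, at 33, 72 and 57 counts in Tarsl2+/+ and 106, 54 and 64 counts in Tarsl2-/- mice, and its interval of -0.16 to 1.15 allowed either direction.

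**Figure D3:**
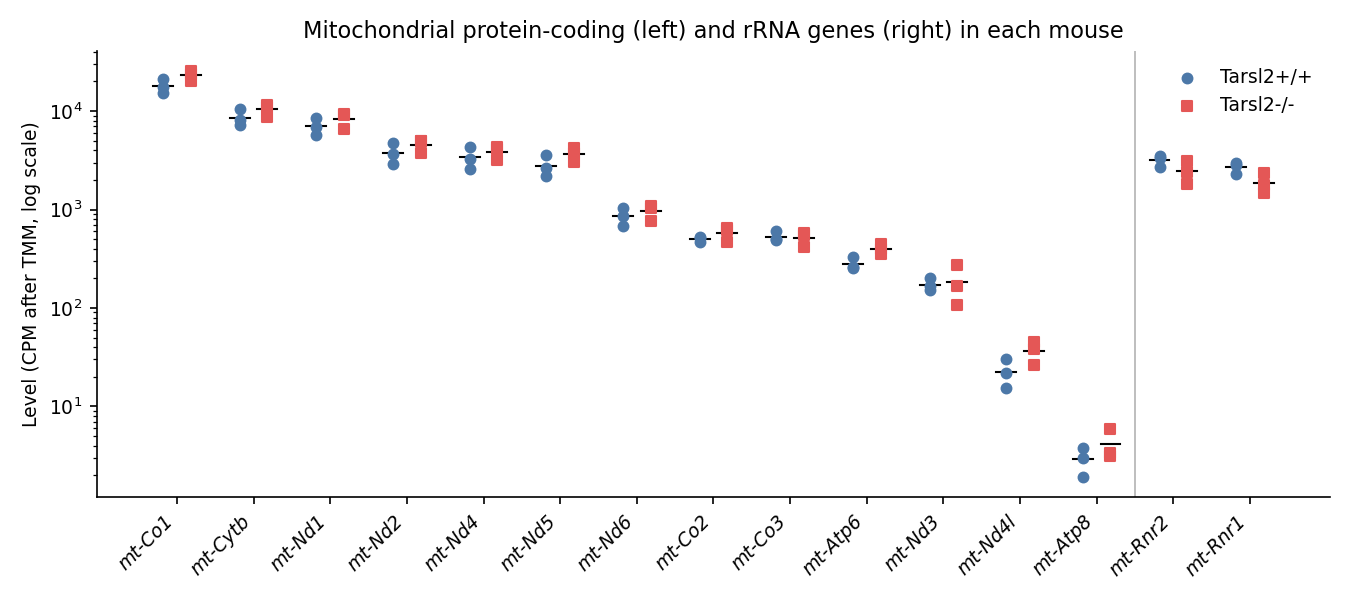
The y axis plots CPM after TMM scaling on a log scale for the 13 mRNAs and, right of the line, the 2 rRNAs, with 1 point per mouse (circles Tarsl2+/+, squares Tarsl2-/-) and a bar at each genotype's mean. The genotypes overlap in every gene but mt-Atp6, where Tarsl2+/+ mice reach 332 CPM and Tarsl2-/- mice start at 357 CPM. The counts of nuclear copies are not included, and with those of Gm10925 added mt-Atp6 overlaps too.

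The mRNAs ranked the mice in much the same order. Tarsl2+/+ mouse 583 was lowest in 10 of 13 mRNAs and Tarsl2-/- mouse 591 in the other 3. Tarsl2-/- mouse 589 was highest in 9, mouse 588 in 2, and mice 584 and 591 in 1 each. Within Tarsl2+/+, mouse 584 lay above mouse 583 in 12 of 13 mRNAs, all but mt-Nd3. The median log2 fold change over the mRNAs was 0.17 to 0.45 when each mouse was left out in turn. Without mouse 584, mt-Atp6, mt-Nd4l and mt-Nd5 were called, at adjusted p of 0.0143, 0.0342 and 0.0416 by edgeR, and without any other mouse no mRNA was.

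**Figure D4:**
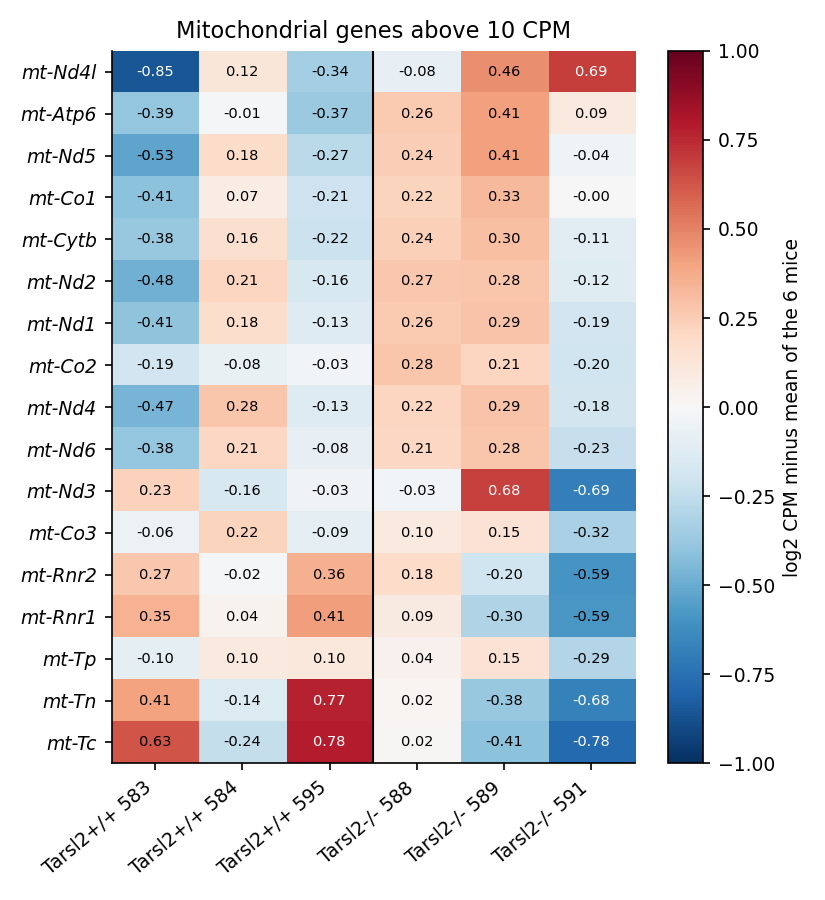
Each cell gives the log2 CPM of a gene (row) in a mouse (column) minus its mean over the 6 mice, for mitochondrial genes above 10 CPM, with red above and blue below that mean and a line between genotypes. mt-Nd5, for example, lies at -0.53 in mouse 583 and 0.41 in mouse 589, while mt-Tc lies at 0.78 in mouse 595 and -0.78 in mouse 591.

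Both rRNAs had log2 fold changes below 0. mt-Rnr1, the small-subunit rRNA, measured 2809.9, 2269 and 2946 CPM in Tarsl2+/+ and 2351, 1791 and 1473 CPM in Tarsl2-/- mice. Its log2 fold change was -0.52 ± 0.16 (SE), with a 95% interval of -0.88 to -0.16, and an adjusted p of 0.118 by edgeR and 0.0155 by DESeq2. mt-Rnr2, the large-subunit rRNA, measured 3297, 2702 and 3507 CPM against 3103, 2381 and 1822 CPM, a log2 fold change of -0.38 ± 0.17 (SE) with an adjusted p of 0.258 by edgeR. In both genes mice 595 and 583 were the highest and mouse 591 the lowest, and mouse 584 fell below mouse 588. The 2 rRNAs made up 13.4%, 8.07% and 12.2% of mitochondrial counts in Tarsl2+/+ and 8.26%, 6.15% and 6.37% in Tarsl2-/- mice, so mouse 584 again lay beside the Tarsl2-/- mice. The ratio of mt-Rnr2 to mt-Rnr1 counts was 1.17 to 1.19 in the Tarsl2+/+ and 1.24 to 1.33 in the Tarsl2-/- mice, which did not overlap and was not tested. For single genes, groups that did not overlap were common, at 24.6% of all genes tested.

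Of the 22 tRNA genes, mt-Tn, mt-Tc and mt-Tp held 97.3% to 99.2% of the tRNA counts in each library. All 3 are on the minus strand, and each is shorter than the sequenced reads, so a count there need not be a mature tRNA. mt-Tn measured 550.1, 378 and 707 CPM in Tarsl2+/+ and 420.3, 318 and 259.9 CPM in Tarsl2-/- mice. mt-Tc measured 816, 447 and 908 CPM against 533, 398 and 307 CPM. Their log2 fold changes were -0.71 ± 0.21 and -0.81 ± 0.24 (SE), with adjusted p of 0.102 and 0.104 by edgeR, and both genotypes overlapped through mouse 584. Without that mouse both were called, at adjusted p of 0.0215 for mt-Tn and 0.0137 for mt-Tc.

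mt-Tp did not share this pattern. It measured 193, 220.3 and 222 CPM in Tarsl2+/+ and 212, 228 and 169 CPM in Tarsl2-/- mice, with a log2 fold change of -0.06 and a 95% interval of -0.32 to 0.20. For mt-Rnr1, mt-Rnr2, mt-Tn and mt-Tc, mouse 595 was highest in 4 of 4 and mouse 591 lowest in 4 of 4, an order different from that of the mRNAs.

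The other 7 tested tRNAs were near the limit of the test, with means between 0.750 and 4.94 CPM. mt-Te (glutamate) measured 54, 126 and 74 counts in Tarsl2+/+ and 87, 98 and 102 counts in Tarsl2-/- mice, and mt-Ty (tyrosine) 67, 97 and 82 against 67, 92 and 78 counts. Both leucine tRNAs, mt-Tl1 and mt-Tl2, as well as mt-Th (histidine) and mt-Tw (tryptophan), had 95% intervals with lower bounds between -0.69 and -0.32 and upper bounds between 0.89 and 1.24. mt-Ts2 (serine) had 7, 15 and 5 counts in Tarsl2+/+ and 10, 21 and 24 counts in Tarsl2-/- mice, a log2 fold change of 1.03 ± 0.47 (SE; adjusted p = 0.255 by edgeR).

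A further 12 tRNAs did not pass the filter on low counts. mt-Tf, mt-Ts1 and mt-Td were at 0 in all 6 libraries, which by count sampling alone allows up to 0.149 to 0.185 CPM of the library total in each. Because the libraries were not designed to capture mature tRNAs, this sets no ceiling on the tRNAs themselves. mt-Tv and mt-Tk never exceeded 1 count. mt-Tt, the substrate of the mitochondrial threonyl-tRNA synthetase, had 1, 5 and 0 counts in Tarsl2+/+ and 3, 0 and 0 counts in Tarsl2-/- mice, so no difference in it was detectable at these counts. mt-Ta (alanine) had 0, 0 and 4 counts against 7, 10 and 8 counts, which did not overlap and were too few to test. The groups did not overlap in 24.6% of all genes tested. The remaining 5 (mt-Ti, mt-Tq, mt-Tm, mt-Tg and mt-Tr) held between 0 and 16 counts in a library.

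Levels between genes were compared per kb of gene length, over the 6 mice. mt-Co1 stood at 13336 CPM per kb, followed by mt-Cytb at 8261, mt-Nd1 at 8041, mt-Nd2 at 3995, mt-Nd4 at 2635, mt-Nd5 at 1769 and mt-Nd6 at 1755. mt-Co2, mt-Co3, mt-Nd3 and mt-Atp6 followed at 792, 667, 510 and 501, then mt-Nd4l at 99.5 and mt-Atp8 at 17.3 CPM per kb. mt-Cytb and mt-Nd1 differed by less than the spread between mice, as did mt-Nd5 and mt-Nd6, and mt-Nd3 and mt-Atp6. The rRNAs, mt-Rnr1 at 2380 and mt-Rnr2 at 1771 CPM per kb, lay in the middle of the mRNAs.

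Most genes of the lower part of this order have near-identical nuclear copies. A search of the annotated nuclear transcripts found 17 copies of 12 mitochondrial genes at 90% identity or more over 50 bases or more, and 7 of them, all pseudogenes on chromosome 1 (chr1:24611535-24616197, GRCm38, minus strand), were at least 99% identical. They followed each other in the gene order of the mitochondrial genome: Gm29216 (part of mt-Co1), Gm28661 (mt-Co2), Gm10925 (mt-Atp6), Gm28437 (mt-Co3), Gm28438 (mt-Nd3), Gm10222 (mt-Nd4l) and Gm28439 (part of mt-Nd4). In 5 of them no aligned base differed. Gm28438 differed from mt-Nd3 by 1 substitution, T3C, counted from 1 at the first base of mt-Nd3 and shown here in capitals.
mt-Nd3: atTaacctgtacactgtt
Gm28438: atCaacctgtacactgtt

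The table counted many reads on these pseudogenes. Gm10925 held 71.6% to 95.2% as many counts as mt-Atp6 in each library, and Gm28437 63.7% to 96.6% as many as mt-Co3. Gm28661 held 48.4% to 56.8% as many as mt-Co2, Gm10222 45.1% to 77.0% as many as mt-Nd4l, and Gm28438 43.3% to 120% as many as mt-Nd3. Gm29216 and Gm28439, whose mitochondrial counterparts extend beyond the copy, held at most 0.951% and 1.82%. By contrast, Gm13341, the diverged copy of mt-Co2 shown above, held 43 to 130 counts, or 0.535% to 1.11% of the mt-Co2 count. Reads from an identical pair cannot be told apart, so the counts of mt-Co2, mt-Atp6, mt-Co3, mt-Nd3 and mt-Nd4l are uncertain.

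The 5 genes with a whole-gene copy had 99.5 to 792 CPM per kb (median 510). The 6 with no annotated copy at 99% identity or more had 17.3 to 8261 (median 2882). The lowest of these 6, mt-Atp8, shares 43 bases with mt-Atp6 that Gm10925 also holds, fewer than the 50 the search required. An unannotated copy of mt-Atp8 would have been missed, so its place in this group is uncertain. Adding the counts of the copy brought mt-Co2 to 1210, mt-Co3 to 1195, mt-Atp6 to 942, mt-Nd3 to 844 and mt-Nd4l to 164 CPM per kb, still below mt-Nd6. With the pairs summed, the log2 fold change was 0.44 ± 0.14 (SE; adjusted p = 0.117 by edgeR) for mt-Atp6 and 0.63 ± 0.21 (SE; adjusted p = 0.126) for mt-Nd4l. That of mt-Nd3 turned from 0.07 to -0.13, and those of mt-Co1, mt-Co2, mt-Co3 and mt-Nd4 stayed at 0.35, 0.21, -0.05 and 0.20. With its pair summed, the genotypes of mt-Atp6 overlapped, as mouse 584 lay above mouse 591.

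**Figure D5:**
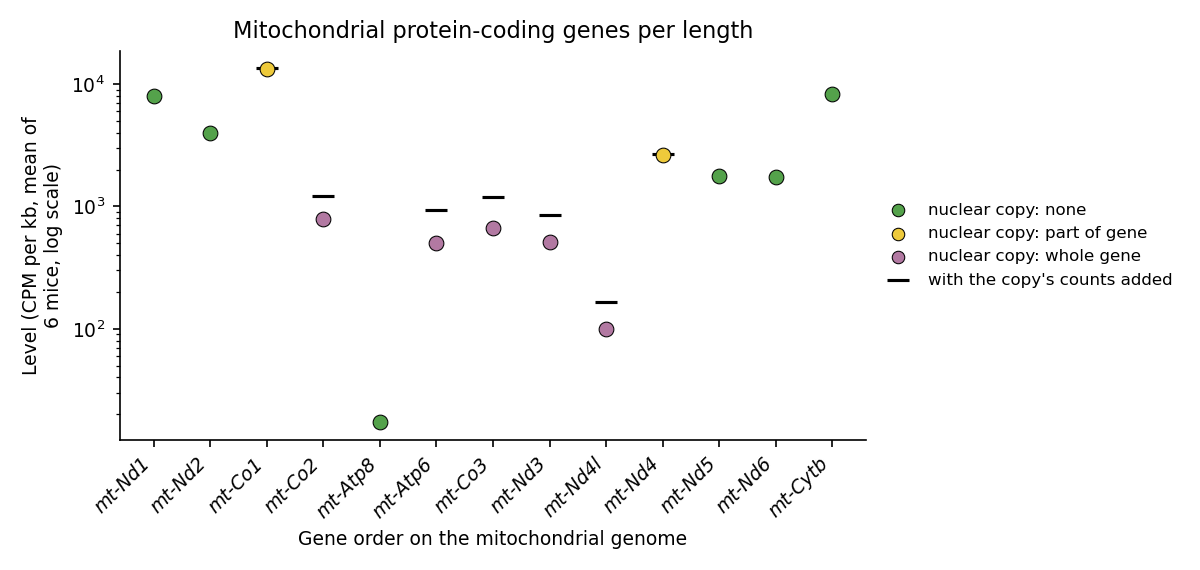
The y axis plots CPM per kb of gene length (mean of 6 mice, log scale) for the 13 mRNAs in genome order. Colours mark whether an annotated nuclear copy of at least 99% identity covers none, part or all of the gene, and a dash the level after adding the copy's counts. The genes with a whole-gene copy lie at 792 CPM per kb or less, and mt-Co1 at 13336 CPM per kb.

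Among nuclear genes that maintain and transcribe mitochondrial DNA, none of 28 tested was called by edgeR, against 2.27% of all genes. An unadjusted p under 0.05 was found for 8, against 19.8% of all genes, and the median log2 fold change was 0.12. Their summed level was 454 to 458 CPM in Tarsl2+/+ and 478 to 489 CPM in Tarsl2-/- mice, a description with no test. DESeq2 likewise found none. The 3 with the smallest p were Slc25a33, a pyrimidine nucleotide carrier of the inner membrane, at a log2 fold change of 0.30 ± 0.09 (SE; adjusted p = 0.0941), Gabpa, a transcription factor of nuclear mitochondrial genes, at 0.31 ± 0.09 (SE; adjusted p = 0.105), and Polrmt. Polrmt, the mitochondrial RNA polymerase, measured 7.31, 6.75 and 5.93 CPM in Tarsl2+/+ and 8.53, 9.61 and 8.89 CPM in Tarsl2-/- mice, a log2 fold change of 0.44 ± 0.14 (SE; adjusted p = 0.111 by edgeR). Tfam, which packages the genome and starts its transcription, was at 50.7 ± 1.44 and 55.8 ± 0.821 CPM (SD, n = 3 each; adjusted p = 0.358 by edgeR).

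Of 39 genes for mitochondrial RNA processing and stability, 1 was called and 9 had an unadjusted p under 0.05, against 2.27% and 19.8% of all genes. Slirp, whose protein works with Lrpprc to stabilise mitochondrial mRNAs, was lower, at 27.7, 27.9 and 32.7 CPM in Tarsl2+/+ and 19.1, 19.7 and 20.6 CPM in Tarsl2-/- mice. Its log2 fold change was -0.57 ± 0.10 (SE; adjusted p = 0.0174 by edgeR). Leaving out Tarsl2+/+ mouse 583 or 595, or Tarsl2-/- mouse 588 or 589, raised the adjusted p to between 0.0534 and 0.0643. Lrpprc was at 21.8 ± 1.47 and 26.3 ± 2.02 CPM (SD, n = 3 each; adjusted p = 0.161 by edgeR). Next by p were Mrm3, an rRNA methyltransferase, at 0.51 ± 0.13 (SE; adjusted p = 0.0657), and Fastk, a regulator of mt-Nd6 RNA, at 0.37 ± 0.10 (SE; adjusted p = 0.0703), both log2 fold changes.

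Among 22 genes that charge mitochondrial tRNAs, 1 was called, against 2.27% of all genes. Kars, which encodes both the cytosolic and the mitochondrial lysyl-tRNA synthetase, was higher, at 70.7, 71.3 and 66.4 CPM in Tarsl2+/+ and 84.4, 97.4 and 92.3 CPM in Tarsl2-/- mice, a log2 fold change of 0.40 ± 0.09 (SE; adjusted p = 0.0400 by edgeR). The call was lost on leaving out any mouse but 584, with adjusted p of 0.0515 to 0.139, and with library totals in place of TMM (adjusted p = 0.0641). Qrsl1, a subunit of the enzyme that completes glutaminyl-tRNA, and Iars2, for isoleucine, followed at log2 fold changes of 0.45 (adjusted p = 0.0659 by edgeR) and 0.31 (adjusted p = 0.156 by edgeR). Tars2, which charges mt-Tt with threonine, measured 17.4, 16.8 and 16.7 CPM in Tarsl2+/+ and 19.8, 21.2 and 16.9 CPM in Tarsl2-/- mice, a log2 fold change of 0.19 ± 0.11 (SE; adjusted p = 0.374 by edgeR).

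The nuclear partners of the mitochondrial subunits were divided. Of 78 nuclear genes of complexes I to V, 41 had a log2 fold change above 0 and 37 below, the median was 0.04, and 2 were called, against 2.27% of all genes. Atp5b, the catalytic beta subunit of complex V, was higher by 0.53 ± 0.11 on the log2 scale (SE; adjusted p = 0.0280 by edgeR), and Ndufa9, of complex I, by 0.36 ± 0.08 (SE; adjusted p = 0.0488 by edgeR). Both calls were lost on leaving out any mouse but 584, with adjusted p of 0.0555 to 0.140 for Atp5b and 0.0978 to 0.167 for Ndufa9. That of Ndufa9 was also lost under RLE, upper-quartile and total-count scaling (adjusted p = 0.0501, 0.0602 and 0.0696 by edgeR). The median log2 fold changes were 0.05 for complex I, 0.21 for II, 0.04 for III, -0.001 for IV and -0.03 for V.

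Marker genes of fibre types and other cells also differed between genotypes, and their part in the mitochondrial values was not tested. In bulk tissue, fewer cells of a type and less RNA per cell cannot be told apart. Slow and oxidative fibre markers summed to 1130 to 1974 CPM in Tarsl2+/+ and 1587 to 2432 CPM in Tarsl2-/- mice, with 10 of 10 log2 fold changes above 0 and none called by edgeR. Erythrocyte markers summed to 7216, 4748 and 10392 CPM in Tarsl2+/+ mice 583, 584 and 595 and to between 4166 and 4536 CPM in Tarsl2-/- mice, with 6 of 6 below 0 and none called. Mice 595 and 583 were thus highest in these markers and in mt-Rnr1, mt-Rnr2, mt-Tn and mt-Tc alike. The same 2 mice were also highest in the macrophage markers (1182 and 1146 CPM). Mouse 591, however, was the highest Tarsl2-/- mouse in the erythrocyte (4536 CPM) and macrophage (721 CPM) markers, but the lowest of all 6 in those 4 mitochondrial genes. No link was tested. Macrophage markers summed to 1008 to 1182 CPM against 571 to 721 CPM, with 3 of 5 called lower (Lyz2, Csf1r and Adgre1). Endothelial markers summed to 108 to 127 CPM against 84.3 to 108 CPM (1 of 4 called, Cdh5), and adipocyte markers to 2661 to 4048 CPM against 3099 to 6843 CPM (0 of 6 called). Of the 10 muscle markers, Myh1 and Ckm were called higher. Over all genes tested, 2.27% were called and 50.4% had a log2 fold change above 0. An unadjusted p under 0.05 by edgeR was found for 19.8% of all genes. Among the markers it was found for 4 of 10 slow and oxidative fibre, 5 of 6 erythrocyte and 5 of 5 macrophage genes. The same held for 1 of 4 endothelial, 2 of 6 adipocyte and 2 of 10 muscle genes.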

How the data were processed

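Total RNA from muscle of 6 mice was poly(A)-selected into stranded libraries and sequenced as paired-end reads, which per the methods of the study were aligned with HISAT2 to mm10. The records of the samples instead name Bowtie 0.12.2 and mm8 among the tools and builds, and an extraction from another tissue. Of the 52403 genes found in GENCODE vM21 (GRCm38), 95.2% had identical coordinates and strand. The values deposited by the authors are raw counts per gene, and the counting tool and strand setting are not given in the sources used here. The members and gene lists were chosen with earlier results of these data known.

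Genes passing filterByExpr (minimum count 10, total 15) were tested with edgeR 4.0.16 (TMM, quasi-likelihood F-test, Benjamini-Hochberg adjustment over all genes, threshold 0.05) in R 4.3.3. Standard errors were derived from F as |log2 fold change|/√F. Unnamed regions, 0.114% to 0.128% of counts, were kept in library sizes. DESeq2 1.42.0, limma 3.58.1 (voom), other scalings and filters, and each mouse left out in turn were alternatives. Nuclear copies were sought with BLAST 2.17.0. On data simulated for this comparison (5 draws, 200 genes changed by 1 on the log2 scale, 14876 to 14895 genes), the test recovered 76.1% to 83.8% of changed genes, and 5.66% to 11.2% of calls fell on unchanged genes. That share lay above the threshold of 0.05 in every draw. Mitochondrial mRNAs had log2 fold changes of -0.04 to 0.70, so this recovery does not show how often changes of their size would be called. All mitochondrial protein-coding and rRNA genes and tested tRNA genes are named, with Tarsl2. From the lists of genes for mitochondrial genome expression and tRNA charging, called genes, the 3 with the smallest p, and Polrmt, Tfam, Lrpprc, Slirp and Tars2 are named, and from the respiratory chain lists called genes alone.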

Additional observations from a re-analysis of the deposited data

How the results depend on the processing

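No mitochondrial gene was called under RLE, upper-quartile, total-count or nuclear-only scaling, limma-voom, a minimum of 10 counts in every library (which removed mt-Ts2), or, chosen after seeing the data, with near-identical nuclear copies summed. DESeq2 called 1 mRNA, 1 rRNA, 4 RNA processing genes (Fastk, Hsd17b10, Mrm3 and Slirp) and 719 genes in all. Without a filter, where 25553 genes were tested and the standard errors of the called mitochondrial genes were 0.107 to 0.114, the calls were 4 mRNAs (mt-Atp6, mt-Co1, mt-Nd4l and mt-Nd5), 2 rRNAs, 2 tRNAs (mt-Tn and mt-Tc), 4 RNA processing genes and 1437 genes in all. With each mouse left out in turn, called mRNAs numbered 0 to 3, tRNAs 0 to 2, RNA processing genes 0 to 2 and all genes 81 (without Tarsl2+/+ mouse 583) to 625, and the ratio of mitochondrial shares was 1.07 to 1.25.

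Across the 25 genes and all alternatives, 343 values kept their direction and side of the threshold, 15 passed the threshold and 16 changed sign. mt-Nd3 turned to -0.019 with limma-voom and -0.13 with copies summed. Leaving out a mouse gave log2 fold changes of -0.13 to 0.088 for mt-Co3, -0.34 to 0.35 for mt-Nd3, -0.15 to 0.055 for mt-Tp, -0.0031 to 0.58 for mt-Te, -0.24 to 0.10 for mt-Ty, -0.064 to 1.07 for mt-Tl2, -0.079 to 0.48 for mt-Tl1 and -0.15 to 0.39 for mt-Th. The cause was not tested. No paired analysis was run, because the sample labels used here give no litter or other link between a Tarsl2+/+ and a Tarsl2-/- mouse. Low counts limited what could be read from the tRNAs other than mt-Tn, mt-Tc and mt-Tp, and why these counts were low was not tested.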
